A study of Oryza sativa with 10 samples.

Results

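Chromatin accessibility of rice seedlings after 24 h of light was set against that after 8 h, site by site, and the sites that differed were then looked up in seedlings kept in the dark. The sites were made from the deposited peaks of the 4 lists concerned, 2 at 8 h and 2 at 24 h, by merging peaks that overlapped by at least 1 bp. This gave 24705 sites, against 33382 when all 10 lists of the series were merged. A site was called gained when both 24 h lists and neither 8 h list held a peak there, lost in the converse case, and kept when all 4 lists held one. By this rule 2066 sites were gained, 3152 were lost and 14422 were kept, and the other 5065 were held by some other combination of lists and are called mixed. The dark lists took no part in the rule.

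When a seedling that germinated in darkness first meets light it leaves skotomorphogenesis, the elongated, pale growth form of the dark, for photomorphogenesis, in which phytochrome and cryptochrome photoreceptors switch the leaf over to chloroplast building and photosynthesis. Regulatory proteins reach DNA mostly where it is free of nucleosomes, and ATAC-seq finds such places because the transposase Tn5 inserts its adapters there, so that reads pile up over accessible promoters and enhancers. Both light samples compared here fall within the first day of greening. They differ in the age of the seedlings and possibly in the time of day as well as in the length of illumination, and without dark seedlings of matching age these cannot be told apart.

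The seedlings were of the indica cultivar YD6, germinated in darkness and sampled whole in the dark (0 h), after the transfer named dark to light 8h, after dark to light 24h, and after spraying with abscisic acid (ABA treatment) or with the auxin indole-3-acetic acid (IAA treatment) shortly before the end of the 24 h. Each of the 5 groups had 2 peak lists, and the ABA and IAA lists appear below only as further states of the same sites. The methods also name seedlings sprayed with the solvent DMSO, and whether the 24 h lists come from these or from unsprayed seedlings is not given in the sources used here. A whole seedling mixes leaf, stem and root cells, and more cells with an open site cannot be told apart from more openness per cell. The light state of the samples could not be checked on light-responsive genes, since no annotation of the build of the files (MSU7.0) was used here.

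The deposited peaks carry no read counts, but the number of tags piled up over each summit could be solved from the peak caller's fold enrichment and p-value, and is called the pileup here. The 8 h lists held 20560 and 19864 peaks and the 24 h lists 19746 and 18111, at relative library sizes from 1 to 1.05, while the dark lists held 24150 and 25302 peaks at 0.765 and 0.789. A peak needed 13 or 14 tags to be called at the lowest background of the light lists and 11 in the dark lists. The paper's methods name 2 biological replicates. The 2 lists of a group nevertheless looked as if they shared most of their tags, which could not be checked without reads. Their pileups differed by a chi-square of 0.0560 per site within the 8 h lists and 0.0697 within the 24 h lists. Independent counts would give about 1, but 8 h and 24 h lists also differed by less than that, 0.570 to 0.596. Between dark and 24 h lists the chi-square was 0.651 to 0.680, and between dark and 8 h lists 0.842 to 0.855. At the sites shared by each pair, 24 h pileups were thus nearer to the dark than 8 h pileups were. The same base was the summit at 51.4% and 46.1% of shared sites within the 8 h and 24 h groups, against 3.302% to 3.72% between these 2 groups. The 2 lists of each group were therefore counted as 1 sample, no test between groups was possible, and the intervals given below (95%, Wilson unless another method is named) cover the counting of sites or tags only.

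Between 8 h and 24 h more sites were lost than gained. Gained sites were 8.36% of all sites and lost sites 12.8%, so that 60.4% of the changed sites were lost ones (59.1% to 61.7%). Of the 18770 sites held by both 8 h lists 16.8% were lost, and of the 17237 held by both 24 h lists 11.99% were gained. Kept sites made up 58.4%. The excess of lost sites followed the length of the lists in part: with every list reduced to the same number of peaks the lost share was 51.4%. Without the second, shorter 24 h list it was 51.7%, with 3164 gained sites.

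The changed sites were narrow and low. Their median width was 155 bp for gained and 158 bp for lost sites, against 293 bp for kept sites. The median pileup of the gained sites was 20 and 21 tags in the 24 h lists, with quartiles of 18 and 23 tags in the first list. The lost sites had the same medians, 20 and 21 tags, in the 8 h lists. Kept sites had 28 and 29 tags at 8 h and 28 and 28 at 24 h. The weakest gained and lost sites had 13 tags in the first list and 14 in the second, which are the call limits themselves. Only 98 gained and 100 lost sites had pileups so high that even the largest pileup that would have escaped calling in the other group lay outside the 95% counting interval of the ratio (Clopper-Pearson). Among these 198 sites lost ones made up 50.5% (43.6% to 57.4%), and an excess of losses was not detectable at that depth.

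The strongest gained sites, ranked by the lower of their 2 within-list percentiles of -log10 q, were about as often dark sites as all sites were. Of the 10 strongest, 8 were called in both dark lists, 1 in 1 dark list and 1 in neither, while 76.0% of all 24705 sites were called in both. At chr3:30988838-30988981 the pileup was 22 and 22 tags in the dark and 36 and 37 at 24 h, while a peak at 8 h would have needed 13 and 14 tags. At chr1:10905289-10905410 it was 28 and 27 tags in the dark and 39 and 41 at 24 h, against call limits of 17 and 17 at 8 h. In both cases the site was open in the dark, below the limit at 8 h and open again at 24 h. At chr2:9082672-9083014 the dark lists had 34 and 36 tags and the 24 h lists 32 and 31, with 13 and 14 needed at 8 h. The dark and the 24 h pileups were close in tags, but the dark libraries were smaller and these tags are not scaled. The site called in neither dark list, chr3:31935510-31935655, had 32 and 30 tags at 24 h and also 28 and 29 under IAA, but no dark, 8 h or ABA peak. The strongest gained site with no peak in any other group was chr11:18423158-18423273, with 30 and 28 tags at 24 h.

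Of the 10 strongest lost sites 6 were called in both dark lists and 4 in neither, beside 76.0% and 18.2% of all sites. Groups of 10 sites are too small to set these counts apart from those of the gained sites. Among the 4, chr3:26960248-26961943 and chr3:26956383-26959090 lie in 1 stretch and are not separate cases. The 2 highest ranked, both on chromosome 3, had peaks at 8 h alone. At chr3:26960248-26961943 the pileup was 49 tags in both 8 h lists, with 16 and 17 needed at 24 h, and the site spanned 1696 bp. It lies in a stretch of wide peaks called in the 8 h library alone, and whether these come from seedling chromatin was not tested. At chr3:12630406-12631323 it was 35 and 38 tags over 918 bp. Both were several times as wide as the median lost site, and neither had a peak in the dark, at 24 h, under ABA or under IAA. A different course was seen at chr3:34412705-34412936, with 22 and 20 tags in the dark, 37 and 42 at 8 h, no peak at 24 h and 32 and 33 tags under IAA. At chr2:33577402-33577630 the pileup was 14 and 14 tags in the dark, 34 and 34 at 8 h, below 14 at 24 h and 21 and 21 under IAA. These latter sites were called in the dark, higher in tags at 8 h and uncalled at 24 h. By calls alone this is no return to the dark state. At chr2:33577402-33577630, however, the dark pileup was equal to the 14 tags needed at 24 h. A 24 h pileup just below the dark one would have gone uncalled there, so a return cannot be told apart from a lower level.

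Whether the late changes led back to the dark state was read from the dark lists. Over all 24705 sites 76.0% were called in both dark lists and 18.2% in neither. Of the gained sites 1204 were called in both dark lists, which is 58.3% (56.1% to 60.4%), 201 in 1 list and 661, or 32.0%, in neither. Of the lost sites 1257 were called in neither dark list, which is 39.9% (38.2% to 41.6%), 330 in 1 list and 1565, or 49.7%, in both. Kept sites were called in both dark lists in 93.2% of cases and mixed sites in 50.9%. In the lists as deposited, a gained site was more often a dark site than a lost site was, and both less often than a kept one.

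Put together, 2461 of the 5218 changed sites, or 47.2% (45.8% to 48.5%), had in the dark the state they had at 24 h, and 2226, or 42.7% (41.3% to 44.0%), the state they had at 8 h, while 531 were called in 1 dark list. By this count neither a return to the dark state nor a departure from it made up a majority of the late changes. That did not hold in all alternatives. The share with the state of 24 h was 42.9% without the first 24 h list and 44.7% without the second. Without the first or the second 8 h list it was 49.5% and 50.1%. Without the first or the second dark list it was 52.1% and 52.5%, where every site falls to 1 state or the other. With a peak in either dark list taken as called it was 51.0%. Among the 198 sites beyond the counting interval the split was 105 sites (53.0%) against 80 (40.4%), and there 81.6% of gained sites were in both dark lists (72.8% to 88.1%) and 25% of lost sites in neither (17.5% to 34.3%). These shares depended on the length of the lists. With the dark lists alone cut to 18111 peaks, the length of the shortest list, 36.4% of gained sites were in both dark lists and 62.8% of lost sites in neither, and 52.4% of changed sites had the dark state as at 24 h. With all 6 lists cut to that length, 41.1% of gained sites were in both dark lists and 58.3% of lost sites in neither, and the share with the dark state as at 24 h was 49.96%.

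**Figure D1:**
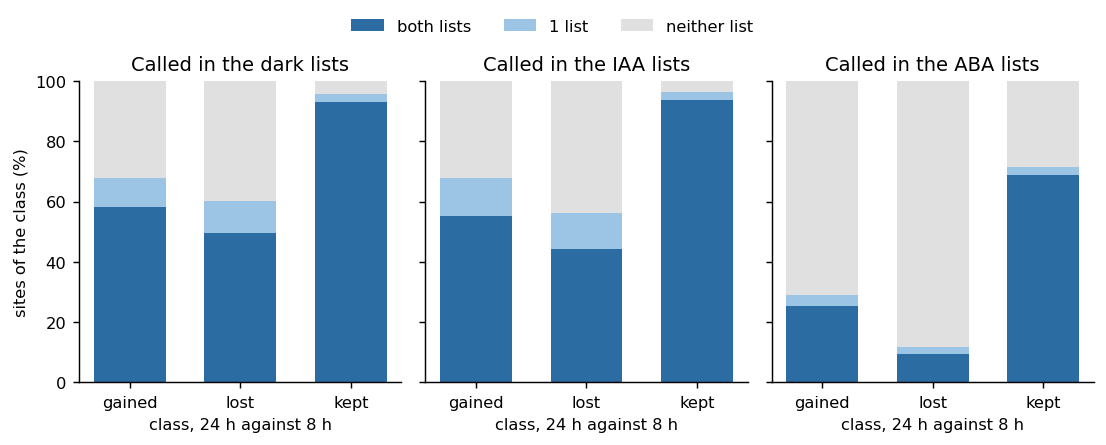
Percent of gained, lost and kept sites (24 h against 8 h) that were called in both, 1 or neither of the dark, IAA and ABA lists. In the dark panel 58.3% of gained, 49.7% of lost and 93.2% of kept sites were called in both lists, and in the ABA panel 88.4% of lost sites were called in neither.

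The hormone lists gave a reference for these shares. In the IAA lists, 55.3% of gained sites were called in both and 43.7% of lost sites in neither, values near those of the dark lists although the IAA seedlings had stood in the light as long as the 24 h ones. In the ABA lists, which held the fewest peaks of the series (13278 and 12659), 25.3% of gained sites were called in both and 88.4% of lost sites in neither. Over all sites the shares called in both lists were 74.8% for IAA and 46.7% for ABA.

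The share of dark sites was higher for stronger changed sites in both classes. With the sites of each class split into 4 equal groups, from the weakest to the strongest, gained sites were called in both dark lists in 49.7%, 52.7%, 59.1% and 71.6% of cases. Lost sites were called in both dark lists in 43.0%, 47.3%, 50.5% and 57.7%, and in neither in 47.3%, 41.8%, 38.5% and 32.0%. The strongest gains were the ones most often called in the dark lists, and the strongest losses the ones least often absent from them. This order was not particular to the dark. In the IAA lists gained sites called in both went from 42.6% to 70.8% and lost sites called in neither from 53.8% to 30.5%. In the ABA lists these shares went from 17.99% to 37.1% and from 90.99% to 85.3%. Shares by strength are not given here for kept sites or all sites. Whether stronger sites are called more often in any list was not tested, so the order is not read as a return to the dark state.

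The question can also be put from the dark onwards, over the 30468 sites of the dark, 8 h and 24 h lists. The steps before and after 8 h share the 8 h lists, so each is given by its own counts. From the dark to 8 h, 5671 sites went from both lists to neither. At 24 h 1178 of them, or 20.8% (19.7% to 21.8%), were called in both lists again, 535 in 1 list and 3958, or 69.8%, in none. In the opposite direction 2086 sites were called at 8 h but not in the dark, and 1257 of these, or 60.3% (58.1% to 62.3%), were uncalled at 24 h, while 589, or 28.2%, were called in both 24 h lists. The dark lists are longer and reach down to lower pileups, which adds weak sites to those counted as closed. With all 6 lists of equal length 59.1% of 3235 closed sites and 43.8% of 3228 opened sites were uncalled at 24 h, and the majority among the opened sites was not kept. With the dark lists alone cut, the values were 62.2% and 45.5%. Of the 15778 sites called in the dark and at 8 h, 85.0% were called in both 24 h lists and 9.70% in none.

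Strength at the start again went with the outcome, and here too a higher rate of calls at stronger sites in any list was not tested. Among the sites closed by 8 h, 13.5%, 16.4%, 19.8% and 33.4% were called again in both 24 h lists from the weakest to the strongest of 4 equal groups of dark peaks. Among those opened by 8 h, 71.3%, 64.7%, 58.7% and 46.4% were uncalled at 24 h from the weakest to the strongest of 4 equal groups of 8 h peaks, and 20.9%, 24.0%, 25.5% and 42.5% were held by both 24 h lists.

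At the kept sites the accessibility moved little. The ratio of 24 h to 8 h pileup, scaled to a median of 0 on the log2 scale, was taken at the 13897 kept sites with exactly 1 peak in each of the 4 lists. It had an SD of 0.28 across sites, lay between -0.48 and 0.45 outside the extreme 5% of sites at either end and ranged from -1.10 to 1.05. A level at least 1.5 times higher at 24 h was seen at 228 sites (1.64%) and one at least 1.5 times lower at 295 sites (2.12%). These counts leaned further towards lower levels, 148 against 467, when pileups were divided by the relative library size instead, which shifts the median of all kept sites by -0.05 on the log2 scale. Of the 210 higher sites with 1 peak in each dark list, 142 (67.6%, 61.02% to 73.6%) had a dark level nearer to that at 24 h than to that at 8 h, and of 262 such lower sites 170 (64.9%, 58.9% to 70.4%), beside 7099 of 12741 (55.7%) over all kept sites. In these 2 groups the scaled dark level was therefore more often nearer to that at 24 h than over all kept sites. With pileups divided by library size this was not computed. The SD of 0.28 is below the counting error of the sites named next, which is 0.36 to 0.45 on the log2 scale. Which of the higher and lower sites changed beyond counting error cannot be told from these counts.

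Among the 8 kept sites with the greatest rise in pileup, the course from dark to 24 h took both forms. At chr11:26428046-26428388 the pileup was 45 and 46 tags in the dark, 22 and 23 at 8 h and 44 and 45 at 24 h, a ratio of 24 h to 8 h of 2.02 with a counting error of 0.37 on the log2 scale. In tags this site was back at its dark pileup, with a scaled log2 ratio of 24 h to dark of -0.11. At chr8:21445787-21446069 it was 17 and 18 tags in the dark, 22 and 24 at 8 h and 45 and 44 at 24 h, a ratio of 1.98. There the 24 h level stood above both earlier ones. At chr1:37513436-37513850, which had the highest ratio (2.07), the pileup was 29 and 28 tags in the dark, 20 and 20 at 8 h and 41 and 40 at 24 h. At chr9:3064377-3064782 it was 22 and 17 tags in the dark, 24 and 24 at 8 h and 43 and 47 at 24 h.

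Among the 8 with the greatest drop, 7 had dark peaks. At all 7 the scaled pileup was highest at 8 h, with lower levels before and after. The lower level at 24 h was fixed by the choice of these sites. Choosing them for high 8 h pileups also favours a lower dark level, and its part was not tested. At chr1:42190055-42190277 the pileup was 21 and 19 tags in the dark, 38 and 37 at 8 h and 18 and 19 at 24 h, 1.98 times lower than at 8 h. At chr1:3322590-3322838 it was 19 and 21 tags in the dark, 36 and 32 at 8 h and 17 and 17 at 24 h. In tags the dark pileup lay near that at 24 h at both sites. Scaled over kept sites, the log2 ratio of 24 h to dark was -0.20 and -0.32, against 0.80 and 0.66 for 8 h to dark. The dark libraries were smaller, and this comparison was not made with pileups divided by library size. The greatest drop was at chr3:10571144-10571961, with 42 and 50 tags at 8 h, 22 and 20 at 24 h, 27 and 24 under IAA and no peak in the dark or under ABA. At chr12:18326969-18327154, in contrast, the dark level of 28 and 24 tags was nearer to the 33 and 33 tags at 8 h than to the 17 and 16 at 24 h.

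**Figure D2:**
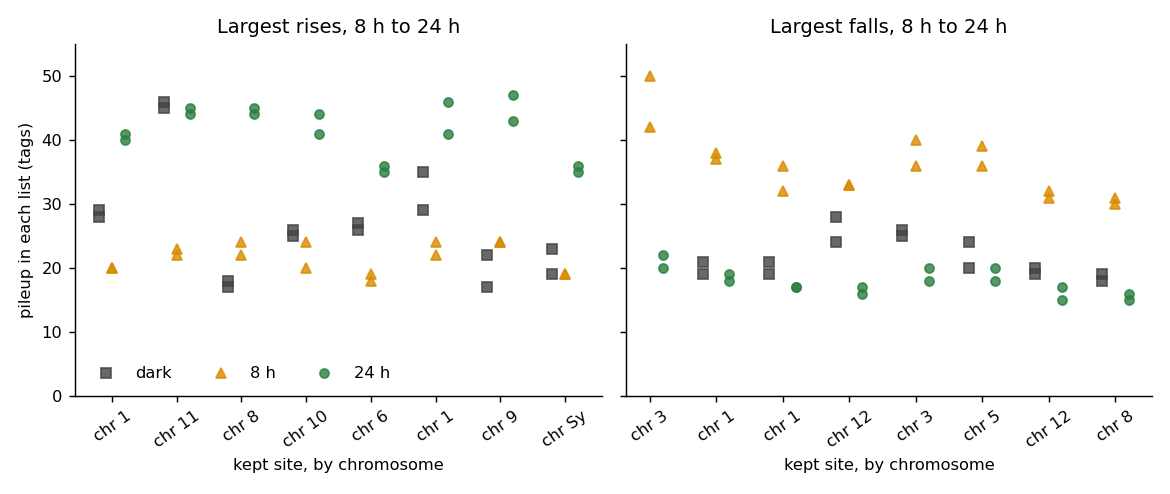
Pileup in tags, in each of the 2 dark, 8 h and 24 h lists, at the 8 kept sites with the greatest rise and the 8 with the greatest drop in pileup from 8 h to 24 h (x axis, the chromosome of each site). On chromosome 11 the dark points (45 and 46 tags) lie beside the 24 h points (44 and 45), and the first dropping site, on chromosome 3, has no dark peak.

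The direction of the late change differed between parts of the genome. Windows of 1 Mb were classed by how many dark sites they held, a measure of the density of open chromatin that the rule did not use. Gained sites were 65.1% of changed sites (222 gained and 119 lost, 59.9% to 69.97%) in windows with up to 40 dark sites. The share was 51.1% with 41 to 60 dark sites, 41.3% with 61 to 80 and 35.2% with 81 to 100. It was 33.2% (586 gained and 1178 lost, 31.1% to 35.5%) in windows with over 100. The sparsest windows thus mostly gained accessible sites late, and the densest mostly lost them. The shares in these end classes moved with the processing but kept their order. They were 71.3% and 43.0% with lists of equal length and 70.7% and 42.4% without the second 24 h list. With -log10 q of at least 5 they were 56.7% and 29.5%. Relative to all sites, gained sites went from 12.2% in the sparsest to 7.06% in the densest class, and lost sites from 6.55% to 14.2%. Among the sites beyond the counting interval the share was 88% in the sparsest class (22 gained and 3 lost), then 64.3%, 45.7% and 50%, and 27.3% in the densest (15 gained and 40 lost), so that the end classes kept their order and the 61 to 80 and 81 to 100 classes did not.

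The kept sites showed a like order on a small scale. Their median log2 ratio of 24 h to 8 h was 0.08, 0.06, -0.0013, -0.02 and -0.03 from the sparsest to the densest windows. At kept sites that also had 1 peak in each dark list, the median log2 ratio of 8 h to dark was -0.21 in the sparsest and 0.07 in the densest class, and that of 24 h to dark was -0.13 and 0.04. The 3 ratios share lists and are shown side by side as descriptions. Sites in sparse windows were therefore lowest at 8 h, and at 24 h had come part of the way to their dark level relative to the rest of the genome. The medians were also taken over kept sites with a mean of at least 40 tags, still centred on all kept sites. From the sparsest to the densest class they were 0.10, 0.11, 0.05, 0.05 and 0.043, all positive, with the sparsest class just below the next. Centred on these stronger sites alone they were 0.035, 0.045, -0.016, -0.017 and -0.024. The classes from 61 dark sites upwards thus stayed below the sparser ones. The depth of the dark peaks differed between the classes as well: their median pileup in the first dark list was 33 tags in the sparsest and 25 in the densest windows, against 29 and 29 in the first 8 h list, and its part in these shares was not tested.

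Changed sites of both directions were more often called in the dark in the sparsest than in the densest windows. Gained sites were called in both dark lists in 66.2% of cases (59.8% to 72.1%) in the sparsest and in 52.6% (48.5% to 56.6%) in the densest windows. Lost sites were called in neither dark list in 23.5% (16.8% to 31.9%) and 41.6% (38.8% to 44.4%). These shares are not independent of the density classes, which were made from the dark lists. The same shares over all sites of each density class are not given here, so they are not read as a trait of changed sites.

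**Figure D3:**
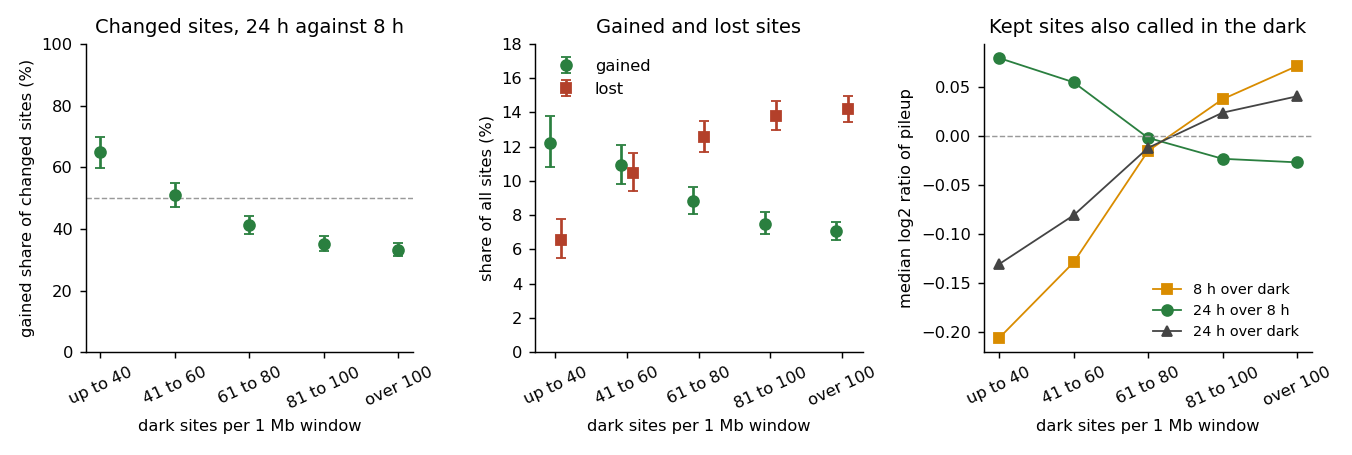
Left, gained sites as percent of changed sites; middle, gained and lost sites as percent of all sites; right, median log2 ratio of pileup at kept sites with 1 peak in each dark list, all against the number of dark sites per 1 Mb window. Bars are 95% Wilson intervals, and the gained share goes from 65.1% in the sparsest to 33.2% in the densest class.

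The gained share also differed between chromosomes, only in part in the order of their density. Gained sites were 33.4%, 33.9%, 33.2% and 35.2% of changed sites on chromosomes 1, 2, 3 and 4. They were 49.0% on chromosome 10 and 51.5% (44.7% to 58.2%) on chromosome 11, and between 41.3% and 45.6% on the other 6 chromosomes. The intervals of chromosomes 1, 2 and 3 ended at or below 37.7%, and that of chromosome 11 began above them. Chromosome 3 had 509 lost sites, of which 47.9% were absent from the dark, the highest such share of the 12 chromosomes. Chromosome 11 had the sparsest windows, with a median of 50 dark sites per Mb around its sites. Density did not order all chromosomes. Chromosomes 5 and 9 had medians of 92 and 99 dark sites per Mb, near the 95 and 93 of chromosomes 1 and 2. Their gained shares were nevertheless higher, 44.0% and 45.5%. On chromosome 12, 50% of the 104 gained sites were called in both dark lists, the lowest share of the 12 chromosomes, against 67.9% of 106 on chromosome 11.

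**Figure D4:**
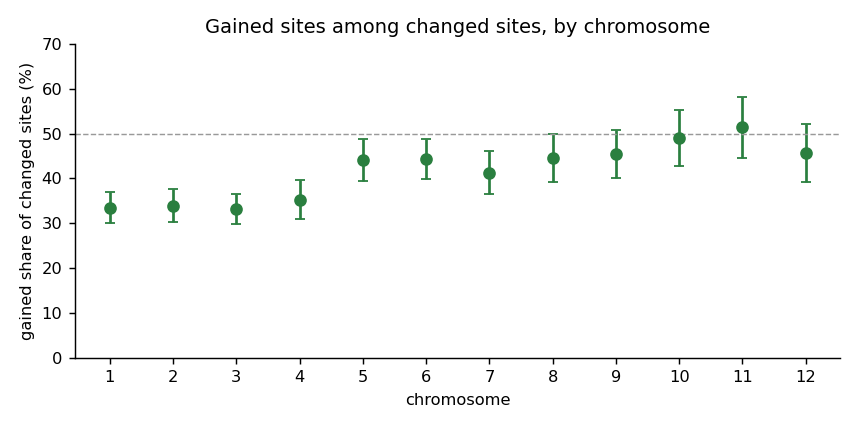
Gained sites as percent of changed sites on each of the 12 rice chromosomes (points, with 95% Wilson intervals; the broken line marks equal numbers of gained and lost sites). Chromosomes 1 to 4 lie between 33.2% and 35.2%, and chromosome 11 is highest at 51.5%.

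A few windows stood far from the genome. Of the 104 windows of 1 Mb with at least 20 changed sites, 90 had more lost and 11 more gained sites. On chromosome 12 between 4 and 5 Mb 20 sites were gained and 2 lost (90.9% gained, 72.2% to 97.5%), and 10 of the gained ones had no dark peak. On chromosome 9 between 3 and 4 Mb 17 were gained and 3 lost, 9 of the gained ones with no dark peak. These windows held 69 and 57 dark sites and did not belong to the sparsest class. At the other end, chromosome 3 between 2 and 3 Mb had 2 gained and 25 lost sites, and chromosome 1 between 5 and 6 Mb had 2 gained and 21 lost.

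A minority of the changed sites lay in short runs of the same direction. Runs of at least 3 gained sites, each within 20 kb of the next, numbered 43 and held 159 gained sites (7.70%). There were 153 such runs of lost sites, with 526 sites (16.7%). Of the lost sites 32.6% had another lost site within 10 kb, and 15.7% had a gained one. Of the gained sites 22.2% had another gained site and 21.4% a lost site within that distance, so that gained sites were about as close to lost sites as to each other. These values also follow the greater number of lost sites and the dense windows in which they lay. Changed sites were about as close to kept sites as kept sites were to each other: 19.2% of gained, 17.9% of lost and 17.9% of kept sites lay within 1 kb of the nearest kept site.

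The run with the most gained sites, chr9:3046965-3074484, held 10 gained and 3 kept sites in 27.5 kb. Pileups of the gained sites were 16 to 29 tags at 24 h, and 8 of the 10 had no dark peak. The strongest of these, chr9:3054932-3055165, had 29 and 28 tags at 24 h and no peak in the dark, at 8 h, under ABA or under IAA. The kept site chr9:3064377-3064782, among the greatest rises above, lies inside this run. A run on chromosome 12, chr12:4490745-4508336, held 6 gained sites of 16 to 30 tags, 5 of them with no dark peak, and a further run of 5 gained sites, chr12:4532455-4547237, followed it. At chr12:4502988-4503285 the pileup was 30 and 29 tags at 24 h, 25 and 24 under ABA and 18 and 19 under IAA. In the run chr3:18122099-18142838 all 6 gained sites were called in both IAA lists, none was called in both ABA lists and 5 had no dark peak. Its widest site, chr3:18122099-18122812, had 27 and 25 tags at 24 h and 26 and 27 under IAA. Most sites of these runs were accessible at 24 h without having been called in the dark, unlike the majority of gained sites.

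A compact run of lost sites was chr3:26954788-26962625, where 5 lost sites lay in 7.84 kb with no other site between them. Their pileups in the 8 h lists were 16 and 17, 38 and 33, 24 and 24, 49 and 49, and 35 and 33 tags from the lower to the higher coordinate. Not one of the 5 had a peak in any dark, 24 h, ABA or IAA list, and 2 of them, 2708 bp and 1696 bp wide, are among the 10 strongest lost sites. This stretch was called at 8 h alone, and since the 8 h lists count as 1 library, DNA particular to that library cannot be told apart there from an effect of 8 h of light. On chromosome 12 the run chr12:5744812-5756623 held 6 lost sites of 16 to 24 tags, all 6 absent from the dark, around a kept site, chr12:5751270-5751881, with 20 and 22 tags in the dark, 48 and 50 at 8 h and 40 and 38 at 24 h. The run with the most lost sites, chr3:10539563-10581125, held 7 lost sites of 14 to 28 tags, 5 of them absent from the dark, and includes the kept site with the greatest drop. Of all 153 runs of lost sites 19 had no dark peak at any lost site and 10 had dark peaks in both lists at every one. Of the 43 runs of gained sites the corresponding numbers were 2 and 8.

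**Figure D5:**
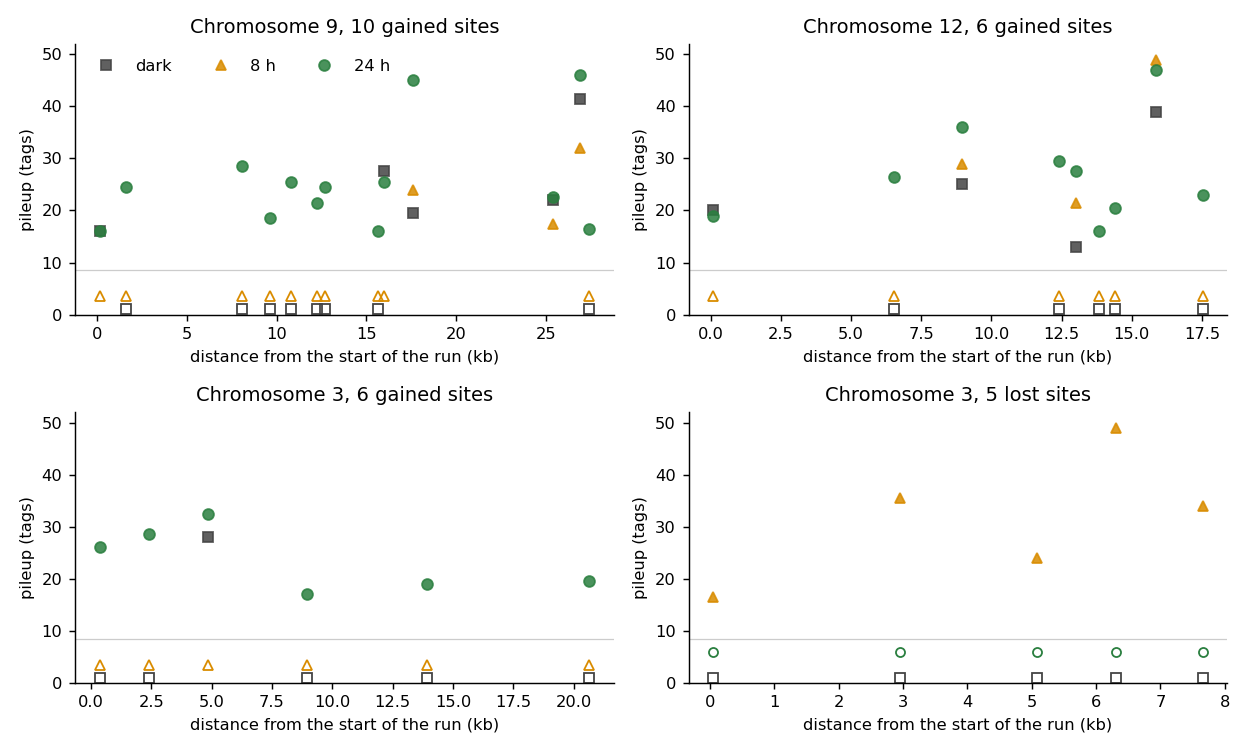
Pileup (mean of the 2 lists, in tags) against distance from the start of the run in kb for 3 runs of gained sites, on chromosomes 9, 12 and 3, and 1 run of lost sites, on chromosome 3, with the kept sites between them. Filled symbols are called sites and hollow symbols under the grey line mark sites with no peak in the dark (squares), at 8 h (triangles) or at 24 h (circles); all 5 sites of the lost run have 8 h symbols alone above the line.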

How the data were processed

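ATAC-seq (Tn5 insertion into open chromatin) was read from 10 peak lists. The authors trimmed the reads, aligned them to MSU7.0 with Bowtie2 2.3.2, filtered them with SAMtools 1.9 and called peaks with MACS2. Processing notes also name deepTools 2.5.3 and DiffBind. A Tn5 shift, the control track and the MACS2 version were not given in the sources used here. The deposited columns used were the MACS2 score, the fold enrichment (a ratio over local background), -log10 p, -log10 q and the summit offset. Peak names inside the lists carry other replicate numbers than the labels, and the labels were followed. The deposited lists give no total read count per sample.

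The pileup is the whole number of tags that, with its local background, gives the deposited fold and -log10 p. It was found for every peak, with errors in -log10 p up to 0.0002. Library sizes relative to the first 8 h list came from the background at identical summits. Intervals (95%) are Wilson or Clopper-Pearson and cover counting error only. Sites named were the 10 strongest gained and lost, the 5 strongest in both and in no dark list, the 8 kept sites with the greatest rise and drop (mean of at least 30 tags in the higher group), and runs. The windows, the single sites named inside the runs, and chromosome contrasts were chosen after their values were seen. Members and lists were chosen with earlier results of these data known. Alternatives covered the peak threshold, list length, overlap, scaling and each list left out. Genes, motifs and sequences were not used here, since the reference gene table is of another assembly. Tools were Python 3.11.15, numpy 2.4.6, pandas 2.3.3, scipy 1.17.1 and matplotlib 3.10.9. The solving of pileups and the site classes were tested on simulated data.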

Additional observations from a re-analysis of the deposited data

How the results depend on the processing

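The 8 h and 24 h lists were counted as 1 sample a group, since the lists of a group appear to share tags. Every count is therefore taken to rest on single libraries. Most changed sites lie a few tags above the call limit. Over all results and alternatives, 100 values stayed within their interval or 1.5 times their count, 88 moved and 1 reversed sign. With -log10 q of at least 5, lost sites in no dark list were 42.2%. With presence limited to the top 50% of each list there were 230 gained, 328 lost and 6606 kept sites, with 73.9% of gained sites in both dark lists and 29.9% of lost sites in neither. With lists of equal length these shares were 41.1% and 58.3%, and with the dark lists alone cut to the shortest list 36.4% and 62.8%, where fewer dark peaks enter by construction. They were 54.3% and 44.0% with peaks covering at least 50% of the site, and 50.5% and 45.1%, with 3474 gained sites, for presence in either list. They were 53.5% and 45.2% when dark peaks had to reach the scaled call limit of the light lists. The gained share in both dark lists was 56.0% with summits matched within 200 bp and 68.0% for a peak in either dark list. Among sites beyond the counting interval there were 98 gained and 100 lost, with 81.6% and 25%. The reversed value was the median log2 change of kept sites with a mean of at least 40 tags in the densest windows, 0.043. It was centred on all kept sites, and centred on these stronger sites alone it was -0.024. The cause of the other movements was not tested. The settings on the counting interval, the scaled call limit, strength and the dark lists alone, and those for the course from the dark onwards, were chosen after seeing the data. With 1 list omitted at a time there were 2361 to 3164 gained sites, 3382 to 4118 lost sites, 51.5% to 65.1% of gained sites in both dark lists and 35.3% to 46.7% of lost sites in neither. No paired analysis was possible because the results come from no test. The alternatives on promoter length, reference point and motif window were not run, since genes and motifs were not used here.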
